A study of Mus musculus with 16 samples.

Results

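The 8 C57BL/6J liver samples of the series fell apart by the signal of *Cyp2b9*, a cytochrome P450 that mouse liver makes mainly in females. The probe of *Cyp2b9* read above 10 on the log2 scale in samples 1, 2, 5 and 7 and below 9 in samples 3, 4, 6 and 8, and the groups were chosen by these values: 4 samples with high and 4 with low *Cyp2b9*, of 16 samples in all. The other 8 samples were A/J livers. All mice were males, 8 weeks old by the labels, on the same High Fat High Calorie diet. The diet was fed for 8 weeks, and the methods give an age of 8 to 10 weeks for the mice used. The labels do not say whether their age is that at the start of the diet. Each sample of hepatic mRNA was a pool of 2 mice. RNA was measured on Illumina Mouse Ref 8 arrays, and each value below is a quantile-normalized log2 signal, on which arrays had a lowest value of 7.61, a median of 8.01 and a highest value of 14.97. The labels do not divide the C57BL/6J mice, and whether the samples of a group shared a cage, a batch or an array was not known here. Since a measured value made the groups, all differences between them are a description with no test. In these bulk samples a lower level per cell cannot be told apart from fewer cells of a type.

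In rodents the liver is among the organs whose gene expression differs most between the sexes. The pulsed secretion of growth hormone in males and its steadier level in females set much of this difference through STAT5, a transcription factor that the growth hormone receptor activates. Nuclear receptors control further genes of the same families, PPARalpha those of fatty acid oxidation and CAR and PXR those of drug metabolism, while PPARgamma drives genes of lipid droplets in fatty liver.

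*Cyp2b9* (chr7:26173350-26210661 in GRCm38.p6) read 11.52, 12.31, 12.04 and 10.92 in samples 1, 2, 5 and 7, and 8.55, 8.03, 8.13 and 7.99 in samples 3, 4, 6 and 8. Sample 7 was the lowest of the high group and sample 3 the highest of the low group, so that no sample lay between 8.55 and 10.92. The 8 A/J samples lay between 12.82 and 13.65, above every C57BL/6J sample.

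The array reads close relatives with separate 50-base probes, and 2 pairs matter for what follows. For each pair the most alike stretch of 30 bases is shown, 5′ to 3′, with the letters that differ between the pair in capitals. All 4 genes lie on chromosome 7.
Cyp2b9: gctgctcacaCcCttcctTctaCtgtTgtt
Cyp2b13: gctgctcacaTcTttcctCctaTtgtGgtt
Hamp2: CccTCCtgtggtatctgttgTGaaGAatag
Hamp: TccCAGtgtggtatctgttgCAaaACatag
The *Cyp2b9* and *Cyp2b13* stretches differed at 5 of the 30 bases, with a longest shared run of 10. Those of *Hamp2* and *Hamp* differed at 8 bases, with a shared run of 14. The probes of *Cyp2b9* and *Cyp2b23* shared no run longer than 7 bases, and those of *Cyp4a12b* and *Cyp4a12a* none longer than 6. Probes were compared only with each other. Whether a probe also binds the transcript of a relative was not tested.

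A gene was counted as different between the groups where their means differed by at least 1.5-fold and the 4 high and 4 low samples did not overlap. Of 9015 genes tested, *Cyp2b9* left out, 30 were higher with high *Cyp2b9* (0.333%) and 36 were lower (0.399%), together 66 (0.732%). At least 2-fold differences were 10 of the higher and 13 of the lower genes. Without a threshold on the fold, 281 genes were higher (3.12%) and 272 lower (3.02%) in all samples of the high group than in any of the low group. Whatever the overlap, 112 genes differed by at least 1.5-fold (1.24%). The median difference over all genes was -0.00026.

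**Figure D1:**
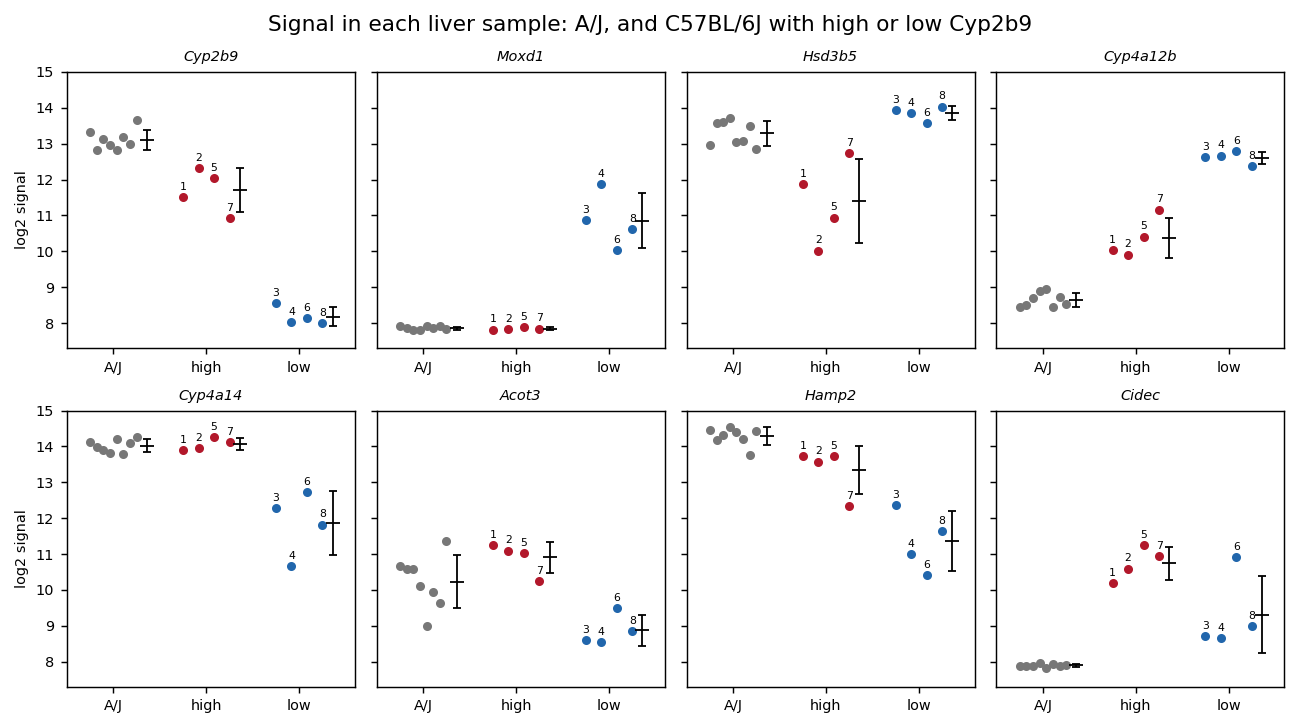
Log2 signal of *Cyp2b9* and 7 other genes in each liver sample: A/J in grey (n = 8), C57BL/6J with high *Cyp2b9* in red (n = 4) and with low *Cyp2b9* in blue (n = 4), with C57BL/6J sample numbers beside the points, and the mean and SD in black. *Moxd1* lay at 7.89 or below in all high samples and at 10.04 or above in all low samples, whereas for *Hamp2* and *Cidec* samples 7 and 6 brought the groups to overlap.

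Among the 36 genes lower with high *Cyp2b9*, 12 were on a list of genes that male mouse liver makes more of. The functional lists were chosen with earlier results of these data known, so overlaps with them are not independent of these data. Of 28 tested members of this male-biased list, 12 were lower and none was higher, with a median difference of -0.44. Over all genes 0.399% were lower. The 12 were *Moxd1*, *Hsd3b5*, *Cyp4a12b*, *Selenbp2*, *Scara5*, *C8b*, *Egfr*, *Cyp7b1*, *C6*, *Susd4*, *Cyp4a12a* and *Sult5a1*. The mean level of the list was 11.32, 11.07, 11.36 and 11.69 in the high samples and 12.15, 12.23, 12.04 and 12.20 in the low samples, while the A/J samples lay between 11.15 and 11.46. The high samples were thus all below the low ones. The count stayed at 11 or 12 when any sample was left out, and at 12 without sample 7, where the median was -0.66. Genes apart over all samples stay apart when a sample is dropped. Such a gene can leave the count only by its fold, so the count shows little about stability.

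*Moxd1*, which encodes a monooxygenase related to dopamine beta-hydroxylase, had the largest difference of all genes counted (chr10:24223517-24302783). It read 7.81, 7.83, 7.89 and 7.85 in the high samples and 10.86, 11.87, 10.04 and 10.61 in the low samples. The high samples lay under the array median, as did A/J at 7.80 to 7.91, so the 8.01-fold difference of the means is compressed by the lower end of the scale. A second probe of *Moxd1* gave a difference of -2.15.

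*Hsd3b5*, a ketosteroid reductase of male mouse liver (chr3:98618636-98645534), read 11.88, 10.02, 10.94 and 12.73 in the high samples and 13.93, 13.86, 13.57 and 14.03 in the low samples. The group means, 11.39 ± 1.17 and 13.85 ± 0.20 (SD, n = 4 each), differed 5.50-fold. The high samples spread widely, with sample 7 nearest the low group, and without it the difference was -2.91 instead of -2.46. A/J samples, at 12.84 to 13.72, overlapped the low group and lay above all high samples.

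*Cyp4a12b*, a fatty acid hydroxylase (chr4:115411624-115439034), read 10.03, 9.91, 10.41 and 11.16 in the high samples and 12.62, 12.67, 12.78 and 12.38 in the low samples, a 4.72-fold difference. A/J samples were lower than either group, at 8.44 to 8.94. Its neighbour in the family *Cyp4a12a* was also lower, by 0.71, reading 12.96 to 13.34 in the high and 13.52 to 14.09 in the low samples. In A/J *Cyp4a12a* spanned 13.15 to 14.30, across both groups.

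*Selenbp2*, a selenium-binding protein gene, was 4.13-fold lower, at 11.61, 11.13, 11.14 and 11.65 against 13.46, 13.73, 12.99 and 13.54. *Scara5*, a ferritin receptor, was 3.09-fold lower, with sample 7 at 9.73 and the other high samples at 8.45 to 8.92. The lowest of the low samples for *Scara5* was sample 6, at 10.21.

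Complement genes made in the liver were among the male-biased genes that differed. *C8b* read 11.76, 11.46, 11.56 and 12.11 in the high samples and 13.21, 13.27, 12.86 and 13.20 in the low samples, and *C6* was lower by 1.05. A second probe of *C6* gave -1.29. *C8a*, which encodes the partner chain of *C8b*, differed by -0.19 and was not counted.

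The growth factor receptor gene *Egfr* read 12.02, 11.25, 11.76 and 12.37 in the high samples and 13.46, 13.51, 12.76 and 13.25 in the low samples. Its 3 other probes gave -1.37, -1.42 and, for the dimmest, -0.59. All 4 probes therefore placed the high group lower. *Cyp7b1*, an oxysterol hydroxylase of bile acid synthesis, read 12.81, 12.67, 13.02 and 13.69 against 14.34, 14.36, 14.19 and 14.44.

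The other 16 tested members of the male-biased list did not meet the rule. Differences were 0.04 for the fatty acid elongase gene *Elovl3*, -0.05 for *Cyp2d9* and -0.42 for the pheromone carrier gene *Mup20*. For *Serpina1e*, a protease inhibitor gene, the difference was -0.23, at levels of 14.34 to 14.86, near the top of the scale. *Bcl6*, a male-biased repressor, ranged from 9.26 to 12.32 in the high samples and from 10.12 to 12.23 in the low samples, so the groups overlapped over most of their range.

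Genes lower with high *Cyp2b9* outside that list included *Serpina4-ps1*, a serpin pseudogene, at 9.08, 8.80, 9.17 and 9.72 against 10.63, 10.65, 11.64 and 10.62. *Serpina12*, which encodes the adipokine vaspin, read 12.77 to 13.06 in the high samples and 13.73 to 14.05 in the low samples. *Nrep* was lower by 1.29 and *Tff3*, a trefoil peptide gene, by 1.01. *Foxa3*, a liver transcription factor, differed by -0.68.

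**Figure D2:**
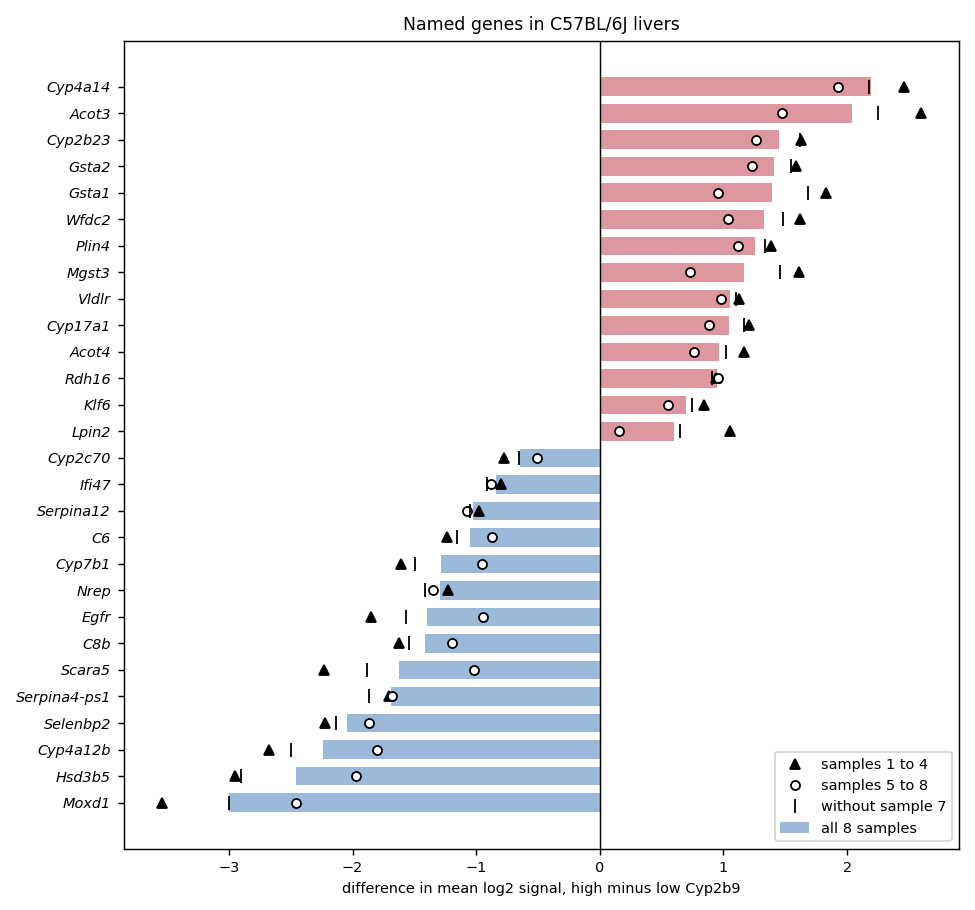
Difference in mean log2 signal, high minus low *Cyp2b9*, for the 28 named genes that differed by at least 1.5-fold with no overlap: bars for all 8 samples (red higher, blue lower), triangles for samples 1 and 2 against 3 and 4, circles for samples 5 and 7 against 6 and 8, ticks without sample 7. The choice of genes without overlap fixes the sign of all 4 values, while their size varies, for *Lpin2* from 1.05 within samples 1 to 4 to 0.16 within samples 5 to 8.

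Genes that female mouse liver makes more of were higher with high *Cyp2b9* in part. Of 19 tested members of the female-biased list, which leaves out *Cyp2b9*, 4 were higher (*Cyp4a14*, *Acot3*, *Cyp17a1* and *Gstt3*) and none was lower, with a median difference of 0.33. Over all genes 0.333% were higher. The mean level of the list was 10.40, 10.44, 10.45 and 10.18 in the high samples, in each above the low samples at 9.92, 9.67, 9.78 and 9.73. The count was 6 without sample 7, with *Hamp2* and *Cyp2b13* added, and 6 without sample 3, with *Hamp2* and *Cyp2b10* added.

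*Cyp4a14*, an omega-hydroxylase of fatty acids (chr4:115486200-115496158), read 13.90, 13.96, 14.27 and 14.12 in the high samples and 12.27, 10.66, 12.73 and 11.82 in the low samples. The high group was tight (SD 0.17) and the low group spread over more than 2 log2 units, with sample 4 the lowest. The difference of 2.19 was 4.57-fold. A/J samples, at 13.78 to 14.25, overlapped the high group and lay above all low samples.

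*Acot3*, a peroxisomal acyl-CoA thioesterase gene (chr12:84052144-84060400), read 11.25, 11.10, 11.02 and 10.26 in the high samples and 8.60, 8.54, 9.49 and 8.85 in the low samples, a 4.10-fold difference. Within samples 1 to 4 the difference was 2.601 and within samples 5 to 8 it was 1.47. The steroid hydroxylase gene *Cyp17a1* read 10.22 to 11.08 in the high samples and 9.29 to 9.71 in the low samples, and A/J was lower than both, at 8.34 to 9.32 with an overlap of the low group at its upper end.

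*Hamp2*, a relative of the iron hormone hepcidin (chr7:30922372-30924181), read 13.73, 13.58, 13.73 and 12.34 in the high samples and 12.36, 11.00, 10.42 and 11.63 in the low samples. The means differed 3.98-fold, but sample 7 lay just below sample 3, so *Hamp2* was not among the 66 genes. Hepcidin itself, *Hamp*, differed by -0.01 at 13.91 to 14.34 in all 8 samples. The iron list held no gene that differed among 21 tested, beside 0.732% of all genes. The transferrin receptor gene *Tfrc* differed by 0.51 and was counted without sample 6 and without sample 7.

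Other female-biased genes stayed at the lower end of the scale. The sulfotransferase gene *Sult3a1*, *Cyp3a41a*, *Cyp3a16* and all 3 probes of the repressor gene *Cux2* read between 7.70 and 8.24 in every C57BL/6J and A/J sample. Both probes of *Xist*, which female cells express, lay at 7.87 to 8.15 in every sample, and the Y-linked *Eif2s3y* read 10.65 to 11.69. The labels' male sex thus had no exception in these genes.

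Of the growth hormone pathway, *Igf1*, its main hepatic target, read 13.20, 13.03, 12.77 and 12.80 in the high samples and 13.44, 13.44, 13.21 and 13.32 in the low samples. The groups were apart, though by less than 1.5-fold (difference -0.40), as were 3.02% of all genes, lower at any fold. The feedback inhibitor gene *Socs2* differed by -0.51, with the groups overlapping, and was counted as lower without sample 4. Differences were -0.05 for the growth hormone receptor gene *Ghr*, -0.38 for *Igfals*, -0.04 for *Cish* and 0.10 for *Stat5a*, none of them counted. *Stat5b* was near the lower end of the scale, at 7.76 to 7.91.

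The relatives of *Cyp2b9* on chromosome 7 were higher in the same samples to unequal degrees. *Cyp2b23* (chr7:26665227-26686430) read 9.50, 10.24, 9.51 and 9.06 in the high samples and 8.33, 8.16, 7.95 and 8.09 in the low samples, with A/J above both at 10.43 to 11.72. *Cyp2b13* read 8.30, 8.50, 8.51 and 7.96 against 7.87, 7.87, 7.83 and 7.79, a difference of 0.48 close to the array median, whereas A/J samples read 10.07 to 12.51. *Cyp2b10*, the classic CAR target, read 9.42, 9.47, 9.78 and 9.44 against 9.47, 8.92, 8.09 and 8.84, so that sample 3 of the low group reached the high group. A part of cross-hybridisation between the probes in the *Cyp2b13* signal was not tested.

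Target genes of PPARalpha, which overlap the female-biased list, showed 6 of 27 higher, beside 0.333% of all genes, and none lower, at a median difference of 0.12. These were *Cyp4a14*, *Acot3*, *Acot4*, *Cyp4a31*, *Pdk4* and *Crat*. *Acot4*, next to *Acot3* on chromosome 12, read 10.44, 10.78, 10.72 and 10.41 in the high samples and 9.38, 9.50, 10.08 and 9.54 in the low samples. *Cyp4a31* was higher by 0.93, the pyruvate dehydrogenase kinase gene *Pdk4* by 0.63 and the carnitine acetyltransferase gene *Crat* by 0.60. The core enzymes of mitochondrial beta-oxidation did not differ, with 0.07 for *Acadm*, -0.05 for *Acadvl* and 0.02 for *Cpt2*, nor did *Fgf21* at 0.18. The count was 5 or 6 with any sample left out, while the median was 0.22 without sample 6 and 0.08 without sample 2. The choice of genes holds this count in part, since genes apart over all samples stay apart with fewer.

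Lipid droplet genes separated the groups less cleanly. Of 17 tested members of the list of PPARgamma and steatosis genes, *Plin4* and *Vldlr* were higher and none was lower, with a median difference of 0.27. Over all genes 0.333% were higher. *Vldlr*, a lipoprotein receptor gene, read 9.11, 9.14, 9.19 and 8.96 in the high samples and 8.06, 7.94, 8.13 and 8.06 in the low samples, with A/J between them at 8.51 to 8.91. Its 4 other probes gave 0.77, 0.66, 0.02 and 0.02, the last 2 at 7.94 or below in every C57BL/6J sample. *Plin4*, which encodes a coat protein of lipid droplets, read 10.79, 10.52, 10.67 and 10.33 against 9.04, 9.51, 10.02 and 8.74.

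*Cidec*, which encodes a protein that fuses lipid droplets, read 10.18, 10.59, 11.25 and 10.94 in the high samples and 8.72, 8.65, 10.91 and 8.99 in the low samples. Sample 6 of the low group lay within the high group. The related *Cidea* read 8.56, 9.30, 9.67 and 9.37 against 8.10, 8.15 and 8.11 in samples 3, 4 and 8. Sample 6 was again apart, above the 9.67 of sample 5 and so the highest of all 8. *Pparg* itself read 10.21, 10.37, 9.79 and 9.49 against 9.50, 9.59, 10.17 and 9.12, with sample 6 the highest of the low group. A/J samples lay at 7.96 or below for *Cidec* and at 8.09 or below for *Cidea*.

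Without sample 6, 6 of the 17 steatosis genes were higher, the 4 added being *Cidec*, *Cidea*, *Mogat1* and *Apoa4*, and the median was 0.44. It was 0.43 without sample 7, 0.18 without sample 2 or 8, 0.63 within samples 1 to 4 and 0.14 within samples 5 to 8. Without sample 7 the count was 4, with *Mogat1* and *Anxa2* added. Over the same leave-outs all genes gave 48 higher (0.532%) and 47 lower (0.521%) without sample 6, and 45 higher (0.499%) without sample 7. The mean of the list in sample 6, 11.13, lay within the high group at 10.92 to 11.28, while the other low samples lay at 10.38 to 10.64. Sample 6 thus stood with the low group for *Cyp2b9* (8.13) and the male-biased list (12.04), and with the high group for the steatosis list. *Plin2*, which encodes another coat protein, differed by 0.11.

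Of the glutathione transferase genes, 3 named below were higher with high *Cyp2b9*, as was a microsomal relative, beside 0.333% of all genes. Not counted were *Gsta4* (0.47), *Gstm1* (0.33), *Gstm2* (0.61), *Gstm4* (0.50) and *Gstp1* (-0.31). The family as a whole was not counted. *Gsta1* read 9.96, 10.89, 10.28 and 9.22 in the high samples and 8.25, 8.94, 9.15 and 8.44 in the low samples, and *Gsta2* 10.31, 10.87, 11.22 and 10.24 against 8.998, 9.02, 9.52 and 9.49. Their probes shared no run longer than 5 bases. Whether either probe also binds the transcript of the other gene was not tested. *Mgst3*, the microsomal relative, was higher by 1.17 with 1.02 for its second probe, and *Gstt3* by 0.72. These are detoxifying enzymes that attach glutathione to reactive compounds.

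Of the 30 tested CAR and PXR targets only *Gsta1* and *Gsta2* met the rule, with none lower and a median of 0.25. Over all genes 0.333% were higher. *Cyp3a11* differed by 0.25, *Cyp2c29* by 0.31 and the CAR gene *Nr1i3* by 0.38. The median was 0.16 without sample 4. The count was 4 higher without sample 7, with *Cyp2b13* and *Gstm2* added. It was 3 higher without sample 1 or 6, with *Abcc3*, without sample 3, with *Cyp2b10*, and without sample 4, with *Gsta4*. Without sample 6 *Cyp1a2* was also lower.

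Further genes higher with high *Cyp2b9* included *Wfdc2*, which encodes a secreted protein with whey acidic protein domains. It read 11.42, 12.01, 11.73 and 11.11 against 9.86, 10.33, 10.95 and 9.82. *Rdh16*, a retinol dehydrogenase gene, read 11.19, 11.23, 11.89 and 11.61 against 10.46, 10.07, 10.91 and 10.68. *Serpina6*, which encodes the binding globulin of corticosteroids, was higher by 0.77, the lysophospholipid transporter gene *Mfsd2a* by 0.80 and the phospholipid transfer protein gene *Pltp* by 0.71.

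**Figure D3:**
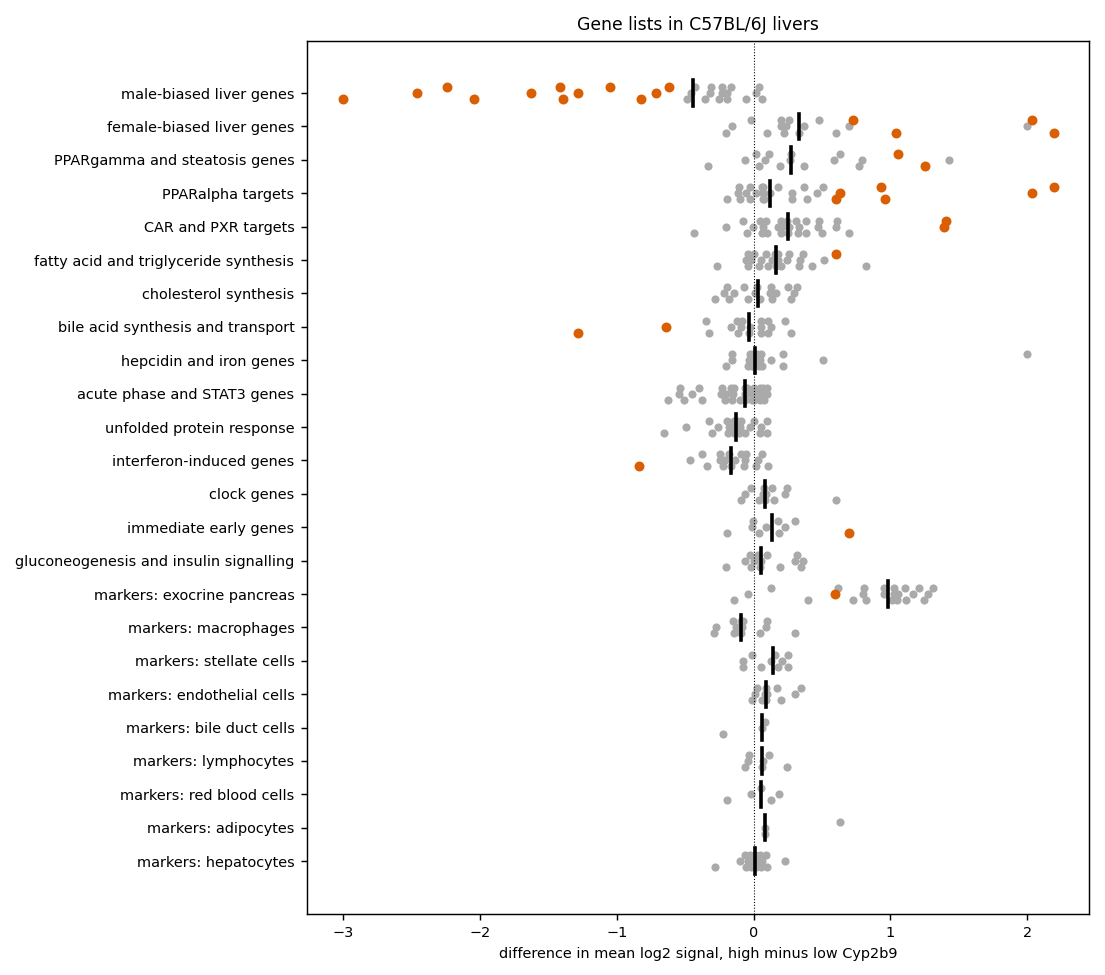
Difference in mean log2 signal, high minus low *Cyp2b9*, of every tested member of 15 functional lists and 9 lists of cell type markers: orange points are genes that differed by at least 1.5-fold with no overlap, grey points did not, and the black bar is the median of the list. The male-biased list holds 12 orange points below 0, and the exocrine pancreas markers have a median of 0.98 with 1 orange point.

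The other functional lists held few or no such genes. Over all genes 0.333% were higher and 0.399% lower. Of bile acid genes *Cyp7b1* and *Cyp2c70* were lower, 2 of 19, with a list median of -0.04 that lay above 0 without sample 1, 2 or 8. *Cyp2c70*, which makes muricholic acids in mice, read 13.47, 13.39, 13.52 and 13.50 in the high samples and 14.23, 14.19, 13.65 and 14.38 in the low samples, and without sample 8 it was not counted. Of 19 interferon-induced genes *Ifi47*, a GTPase, was lower by 0.84, and of 10 immediate early genes the transcription factor gene *Klf6* was higher by 0.70. Among the 25 tested that make fatty acids and triglycerides only *Lpin2*, a phosphatidate phosphatase gene, was higher, by 0.60, and it was not counted without sample 1, 2, 3 or 4. Without sample 6 the malic enzyme gene *Me1* was counted as well.

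The rule was met by 0.732% of all genes. No gene met it among 18 of cholesterol synthesis, 33 of the acute phase and STAT3, 22 of the unfolded protein response, 13 of the clock and 14 of gluconeogenesis and insulin signalling. Their median differences ran from -0.13 for the unfolded protein response to 0.08 for the clock. *Xbp1* differed by -0.49 and *Socs3* by -0.24. The median of the clock was 0.18 without sample 2. Among these lists leaving out a sample added at most 2 genes: *Saa1* and *Saa2* without sample 8, and *Saa1* and *Per1* without sample 2. Single genes added were *Socs2* without sample 4, *Orm2* without sample 5 or 7, and *Creld2* without sample 6.

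The mean level of a list could be apart between the groups where few members met the rule. It was so for 6 of the 15 functional lists. Beside the male-biased and female-biased lists these were the PPARalpha targets, at 11.94 to 12.08 in the high and 11.51 to 11.82 in the low samples, and the CAR and PXR targets, at 11.27 to 11.54 and 10.96 to 11.12. The unfolded protein response was lower in the high samples, at 10.86 to 10.96 against 11.02 to 11.10, with 17 of 22 members lower. The interferon-induced genes were lower by a narrow gap, at 9.70 to 9.84 against 9.86 to 10.08, with 15 of 19 members lower. The difference of the means was -0.15 for the former and -0.18 for the latter, beside -0.79 for the male-biased list. Over all genes the median difference was -0.00026, with 3.12% higher and 3.02% lower where the groups were apart at any fold. How often lists of other genes would be apart or lean to a side was not tested.

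RNA of exocrine pancreas was present in sample 7. The mean of 24 marker genes of that tissue was 11.88 there and 8.03 to 8.35 in the other 7 C57BL/6J samples. The median difference of the markers was 0.98 over all samples, 0.04 within samples 1 to 4, and -0.05 without sample 7. Of the A/J samples, 4 and 7 had means of 10.25 and 10.08, and the others 8.17 to 8.58. *Pla2g1b*, a pancreatic phospholipase gene, was the only marker counted, with a difference of 0.59, or 0.09 without sample 7.

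Of the 66 genes, 62 kept a difference of at least 1.5-fold without sample 7, 28 higher and 34 lower. The exceptions were *Pla2g1b*, *Nupr1* (0.67 and then 0.30), *Dmac1* (-0.63 and then -0.56) and *Eif4e3* (-0.62 and then -0.58). For 52 of the 66 the difference was larger without it. Counted again without sample 7, 45 genes were higher (0.499%) and 46 lower (0.51%).

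None of the 13 macrophage, 10 stellate cell, 12 endothelial cell, 3 bile duct cell, 7 lymphocyte, 5 red blood cell and 3 adipocyte markers met the rule. Over all genes only 0.732% met it, so its absence in lists this short is no result about these cells. The mean of the endothelial markers was nevertheless apart, at 10.17 to 10.27 in the high and 10.06 to 10.16 in the low samples, a difference of 0.12 with 11 of the 12 higher. Its part in the results was not tested, nor was how often lists of other genes would be apart. The means of the other marker lists overlapped between the groups. The hepatocyte markers had a mean of 13.97 to 14.12 in the high and 14.00 to 14.10 in the low samples. The adipocyte markers read 10.46 to 10.78 in the high samples and 10.20 to 10.90 in the low samples, with sample 6 the highest of all. Only 3 of 11 listed adipocyte genes were tested. Of these *Cidea*, also on the steatosis list, differed by 0.63, and *Lipe* and *Car3* by 0.08 each.

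Within the high group, sample 7 most often lay nearest the low group. It did so for 41 of the 66 genes, against 12 for sample 1, 5 for sample 2 and 8 for sample 5. Within the low group, sample 6 lay nearest the high group for 40 of the 66, against 11 for sample 3, 8 for sample 4 and 7 for sample 8. Sample 7 also had the lowest *Cyp2b9* of the high group, whereas sample 6 had the second highest of the low group.

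**Figure D4:**
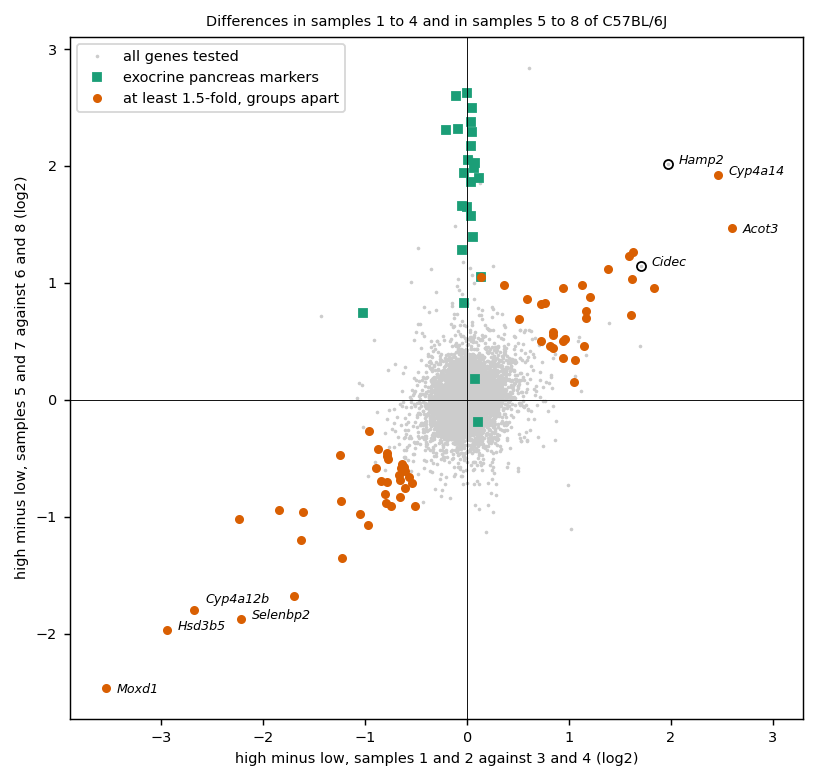
Difference in mean log2 signal, high minus low *Cyp2b9*, of each tested gene within samples 1 to 4 (x axis) and within samples 5 to 8 (y axis): grey for all genes, orange for the 66 that differed in all 8 samples, green for exocrine pancreas markers. Of the 66, 59 differed by at least 1.5-fold within samples 1 to 4 and 45 within samples 5 to 8, and nearly all pancreas markers lie near 0 on the x axis and high on the y axis, where sample 7 enters. The 66 were chosen over the same 8 samples, so the counts of 59 and 45 are not independent of that choice.

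The A/J samples, which had no part in choosing the groups, allowed a test of the relation to *Cyp2b9*. For each gene limma fitted the slope of its log2 signal on that of *Cyp2b9* over the 8 samples. No gene of 9015 passed an adjusted P of 0.05 (0%), with 243 at an unadjusted P under 0.05. Without A/J samples 4 and 7, which carried pancreas RNA, none passed either, with 369 at an unadjusted P under 0.05. Both counts are below the share of 0.05 of the genes reached on average where no gene is related to *Cyp2b9*. *Cyp2b9* varied little in A/J (SD 0.28), and none of these samples read as low as C57BL/6J. This test therefore covers another part of the range of *Cyp2b9*, and does not show that the genes are unrelated to it there.

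The smallest adjusted P in A/J was that of *Cyp2b13*, with a slope of 2.70 ± 0.29 (SE, n = 8, limma adjusted P = 0.0608). Among the 66 genes it was that of *C6*, with a slope of -1.30 ± 0.23 (limma adjusted P = 0.512). *Cyp2b23* had a slope of 1.41 ± 0.30 (limma adjusted P = 0.904), *Acot4* of 0.95 ± 0.19 (0.755) and *Nrep* of 1.40 ± 0.27 (0.733). For *Nrep*, lower with high *Cyp2b9* in C57BL/6J, this estimate has the opposite sign.

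The strains themselves were compared with limma over all 16 samples. Of all 9015 genes, 479 passed an adjusted P of 0.05 with a fold of at least 1.5 (5.31%), and of the 66 genes 25 did (37.9%). Of the 25, 6 were higher and 19 lower in A/J, where over all genes 192 were higher (2.13%) and 287 lower (3.18%). Without A/J samples 4 and 7 and C57BL/6J sample 7, 23 of the 66 did. Both comparisons use the same 8 C57BL/6J samples, so this share is not independent of the choice of the groups.

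Although *Cyp2b9* itself was highest in A/J, the genes did not all place A/J beside the high group. *Cyp4a12b* differed between A/J and C57BL/6J by -2.85 ± 0.41 (A/J minus C57BL/6J, SE, limma adjusted P = 3.76e-05), *Selenbp2* by -1.79 ± 0.36 (0.00121) and *C6* by -1.20 ± 0.23 (0.000748). For each of these the A/J mean lay beyond the high group. *Cyp2b23* was higher in A/J by 2.03 ± 0.31 (7.24e-05).

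Others put A/J on the side of the low group. The difference was -1.34 ± 0.23 for *Cyp17a1* (limma adjusted P = 0.000284), -1.15 ± 0.30 for *Gsta1* (0.0076) and -0.99 ± 0.26 for *Plin4* (0.00846), although all 3 were higher with high *Cyp2b9*. For *Cidec* it was -2.13 ± 0.35 (limma adjusted P = 0.000143). *Tff3* was higher in A/J by 1.26 and *Susd4*, a complement regulator, by 0.71, although both were lower with high *Cyp2b9*. *Hsd3b5*, *Cyp7b1*, *C8b*, *Acot3* and *Cyp4a14* did not pass between strains, with limma adjusted P of 0.378, 0.522, 0.621, 0.629 and 0.0775.

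Promoters of the counted genes were searched for TTCNNNGAA, the core of the sites that STAT5 binds, which reads the same on both strands. Windows around the start of transcription, from RefSeq in GRCm38.p6, were at hand for 24 of the higher and 23 of the lower genes. The letters occurred in 3 of the 24 (12.5%) and 3 of the 23 (13.0%), beside 8.55% of the 7353 tested genes with a promoter and 9.55% of all 27025. Such shares are near the background and are no result about these genes. The higher genes with a match were *Gsta1*, *Rdh16* and *Nupr1*, and the lower ones *Moxd1*, *Slc17a3* and *Dmac1*. Of these the windows of the 3 named by the rule for large differences are shown with the match in capitals, for *Gsta1* at chr9:78230487-78230535 (+), for *Rdh16* at chr10:127800903-127800951 (+) and for *Moxd1* at chr10:24223347-24223395 (+).
Gsta1: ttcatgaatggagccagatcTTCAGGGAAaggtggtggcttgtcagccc
Rdh16: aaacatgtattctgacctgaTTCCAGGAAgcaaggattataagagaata
Moxd1: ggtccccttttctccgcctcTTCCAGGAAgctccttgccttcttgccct
A match is a run of letters and not a measured site. The strict consensus DR1 repeat, which PPARalpha with RXR can bind, occurred on either strand in none of these promoters and in 0.0481% of all.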

How the data were processed

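Illumina Mouse Ref 8 arrays measured liver RNA of 8 A/J and 8 C57BL/6J samples. Scans were read in BeadStudio and quantile-normalized by the authors in lumi; the sources used here give no versions, background correction or transform. Values were deposited as log2, for 25697 probes and 16 samples, and all were used. The sorted values of any 2 arrays differed by 0.00086 or less, so the total signal carries no information, and the number of arrays limits the precision. A second deposited table, of other content, encodes each probe's 50 bases. Of the probes, 23978 had 1 gene symbol and 1719 none; RefSeq held 23962 under their Entrez ID and 9 under an accession, and 8 symbols were updated.

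Probes with a mean of at least 8 over the 16 samples were kept (12998), in place of the methods' filter on detection P, and the probe with the highest mean stood for a gene. C57BL/6J samples were grouped by the *Cyp2b9* probe, which was left out of all counts, and differences between these groups received no P. With R 4.3.3, lmFit and eBayes of limma 3.58.1 fitted the A/J slopes and the strain difference (14 residual degrees of freedom), with Benjamini-Hochberg adjustment over all kept probes. Nothing shows that samples of a strain came from separate experiments, so P-values measure only the spread between samples. Other steps ran in Python 3.11.15 with pandas 2.3.3, and figures were drawn with matplotlib 3.10.9. The scripts were tested on simulated data, in which unchanged probes varied independently of each other and of *Cyp2b9*. Calls among them are therefore no chance rate for the genes counted in the real data. Over the 12998 kept probes, the rule for high against low *Cyp2b9* found 38% of 1.5-fold and 100% of 2-fold changes and called 13 of 12797 unchanged probes, the A/J slopes found 18% of slopes of 0.5, 70% of 1 and 96% of 2 and called 6 unchanged probes, and the strain test found 54% of 1.5-fold and 100% of 2-fold changes and called 1.

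The groups, gene lists and genes were chosen with earlier results of these data known. Named genes were *Cyp4a12b*, *Hamp2* and *Cidec*, the 12 largest rises and 12 largest falls that kept 1.5-fold and no overlap without sample 7, and up to 3 such members per functional list: 30 genes, of which 28 differed. All other genes were named after their values were seen. List members off the array or under the filter were not tested: of 35 male-biased genes listed, 30 were on the array and 28 tested, and of 41 female-biased genes 30 and 19. Alternatives were other filters, scalings, probes and fold thresholds, medians, subsets of the samples, a replicate block, eBayes with trend and robust, and leaving out each sample. Leaving out the samples with pancreas RNA together was chosen after seeing the data.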

Additional observations from a re-analysis of the deposited data

Results flagged for a closer look

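In groups of 4 to 8 samples, a sample was singled out where its gap to the next was large against the range of its group. Such gaps arose in 6 of 102 groups examined, where chance alone gives about 1 in 20. Sample 7 of the high group stood low for *Hamp2*, at 12.34, and high for the mean of exocrine pancreas markers, at 11.88. Sample 6 of the low group stood apart for *Cidec* (10.91), *Serpina4-ps1* (11.64) and *C8b* (12.86). Its *Cidec* and *C8b* lay toward the high group, and its *Serpina4-ps1* away from it. Among A/J samples, sample 7 was lowest for *Hamp2*, at 13.76.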

How the results depend on the processing

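The count of 66 genes became 164 within samples 1 to 4 alone and 149 within samples 5 to 8 alone, where groups of 2 overlap less often, 23 at a fold of 2, and 553 with no threshold on the fold. It was 61 to 70 under the other filters, scalings, probe choices and medians, and 62 to 95 with a sample left out, highest without sample 6. Of the A/J slopes, none passed except that of *Cyp2b13* with the 8000 brightest probes (1 gene), with trend and robust (1 gene) and without A/J sample 1; leaving out a sample gave 0 to 1. Strain calls among the 66, 25 as reported, were 23 to 28 with a sample left out and 23 to 32 otherwise. With the sample number as a replicate block they were 28; same-numbered samples of the strains had correlated deviations of -0.015 to 0.539, only numbers 1, 7 and 8 matched their own number best, and the numbers were not taken as pairs. Of 420 differences of the 30 named genes under other settings, 13 moved by more than the spread between replicates; for 28 of them the choice without overlap fixes the sign when samples are left out, so the sign shows no stability. Of 392 for these 28, 384 kept 1.5-fold. The scalings moved the median of all genes by less than 0.001. Signals near the array median of 8.01 limit the size of differences, as for *Moxd1* and *Cyp2b13*, and 4 samples a group, chosen by *Cyp2b9*, allow no test.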
